A study of Mus musculus with 6 samples.

Results

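The genes described are 10 chemokine ligands of myeloid cells: Ccl2, Ccl3, Ccl4, Ccl5, Ccl6, Ccl9, Cxcl2, Cxcl9, Cxcl10 and Cxcl16. They were chosen by name. Each was read from the probe sets that the platform table pairs with exactly 1 gene symbol, and where a gene has several, from the one whose mean over the 6 arrays was highest. All 10 had 1 such probe set, so no choice between probe sets was needed. They are 10 of 19938 genes with such a probe set, and all 10 lay above the brightness filter (a mean log2 value of 4.72, the 30th percentile of named probe sets) that left 13965 genes for the test.

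Gene expression was measured in spleen cells of 6 mice. The mice were lethally irradiated recipients of the hybrid strain B6D2F1, 3 given PBS and 3 given rapamycin, an inhibitor of the kinase mTOR, by intraperitoneal injection of 1.5 mg/kg on alternate days until day 10 after transplantation. All had received allogeneic bone marrow of B6 mice from which T cells had been removed. Per the labels, the marrow was given with or without spleen cells of B6 mice. Which mice received them, and the ages, are not stated there. Cells binding CD11b beads were taken from the spleen on day 10, and in the labels they are named myeloid-derived suppressor cells (MDSCs), a mixed population of immature myeloid cells that can restrain T cells. Such a sort takes neutrophils, monocytes and macrophages together. The brightness filter was passed by 12 of 12 neutrophil markers listed (among them Itgam, which encodes CD11b, Ly6g and S100a8). It was also passed by 7 of 7 monocyte and 11 of 12 macrophage markers with a probe set. So did 8 of 11 T cell markers and 13965 of all 19938 genes, and passing the filter does not show which cells were sorted. Mice of a group are biological replicates per the labels, each was read on 1 array, and array medians ran from 5.42 to 5.46 (log2). The question put to these genes is whether their levels in the sorted cells differed after rapamycin treatment.

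Chemokines are small secreted proteins that guide leukocytes through G protein-coupled receptors. Interferon gamma from T cells and NK cells induces Cxcl9 and Cxcl10 in myeloid cells, and both proteins bind CXCR3 on activated T cells. Ccl2 calls monocytes through CCR2, Cxcl2 calls neutrophils through CXCR2, and Ccl3, Ccl5, Ccl6 and Ccl9 act on myeloid cells through CCR1.

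RefSeq promoter windows on GRCm38.p6 were found for 6 of the 10 genes (Ccl3, Ccl6, Ccl9, Cxcl2, Cxcl9 and Cxcl10). Promoter sequence is shown for those of the 6 whose rapamycin and PBS values did not overlap, which leaves out Ccl6. The lines give the 250 bases before the annotated start of transcription, 5′ to 3′ on the gene's strand. They lie at chr5:92328080-92328329 (minus strand) for Cxcl9, chr5:92348890-92349139 (minus strand) for Cxcl10, chr5:90903649-90903898 (plus strand) for Cxcl2, chr11:83649379-83649628 (minus strand) for Ccl3 and chr11:83578637-83578886 (minus strand) for Ccl9. Capitals mark letters that match the core of the interferon-stimulated response element or the NF-kB consensus.
Cxcl9: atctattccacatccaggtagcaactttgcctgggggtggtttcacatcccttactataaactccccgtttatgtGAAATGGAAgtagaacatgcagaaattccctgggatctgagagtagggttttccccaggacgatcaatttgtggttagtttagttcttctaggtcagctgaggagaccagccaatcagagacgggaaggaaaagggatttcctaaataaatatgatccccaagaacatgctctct
Cxcl10: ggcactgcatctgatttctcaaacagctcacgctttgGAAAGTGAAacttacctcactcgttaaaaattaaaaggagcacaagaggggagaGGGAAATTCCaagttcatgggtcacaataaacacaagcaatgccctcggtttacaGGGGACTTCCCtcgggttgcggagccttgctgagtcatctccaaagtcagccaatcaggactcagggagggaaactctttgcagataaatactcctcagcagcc
Cxcl2: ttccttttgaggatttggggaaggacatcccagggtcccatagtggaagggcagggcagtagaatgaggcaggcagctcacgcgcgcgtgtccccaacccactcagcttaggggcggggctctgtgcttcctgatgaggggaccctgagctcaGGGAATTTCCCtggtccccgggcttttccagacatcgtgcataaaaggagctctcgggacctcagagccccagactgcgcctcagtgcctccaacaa
Ccl3: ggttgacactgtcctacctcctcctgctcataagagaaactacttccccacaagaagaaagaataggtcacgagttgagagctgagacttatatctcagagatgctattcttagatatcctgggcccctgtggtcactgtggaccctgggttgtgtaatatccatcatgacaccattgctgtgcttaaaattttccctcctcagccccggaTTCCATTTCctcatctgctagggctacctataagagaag
Ccl9: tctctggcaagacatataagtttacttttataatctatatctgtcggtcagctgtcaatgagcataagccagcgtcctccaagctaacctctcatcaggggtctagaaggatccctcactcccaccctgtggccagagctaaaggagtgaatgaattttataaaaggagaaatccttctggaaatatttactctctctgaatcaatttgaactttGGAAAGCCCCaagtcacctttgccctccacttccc

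The core of the interferon-stimulated response element was searched as GAAANNGAA on both strands. It was found at bases -175 to -167 of Cxcl9 and -213 to -205 of Cxcl10, counted from the start of transcription, and on the reverse strand at -39 to -31 of Ccl3. The NF-kB consensus, searched on both strands, was found at -159 to -150 of Cxcl10, again at -104 to -94 as a pair of overlapping matches, and at -97 to -87 of Cxcl2, also as overlapping matches. Ccl9 held an NF-kB match at -35 to -26, and Ccl6 held no match to any motif searched. The gamma-activated site, TTCNNNGAA, was in none of the 6 windows. Over all 32851 promoter windows of 300 bases in the RefSeq table, 8.56% held the response element core, 8.46% the NF-kB consensus and 8.3% the gamma-activated site. These matches describe letters only, and no binding was measured here.

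Of the 10 ligands, Cxcl9 and Cxcl10 rose with rapamycin, Ccl3 fell, and 7 did not pass the test (limma, called at an adjusted p under 0.05 over all genes tested). Over all 13965 genes tested, 4.42% were called higher and 6.92% lower. The rapamycin arrays lay wholly above the PBS arrays for 3 ligands (Cxcl9, Cxcl10 and Cxcl2), against 12.6% of all genes, and wholly below them for 3 (Ccl3, Ccl5 and Ccl9), against 19.4%. The median log2 change of the 10 was -0.0846, beside -0.0166 over all genes. In bulk RNA, fewer cells of a type and less RNA per cell cannot be told apart.

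**Figure D1:**
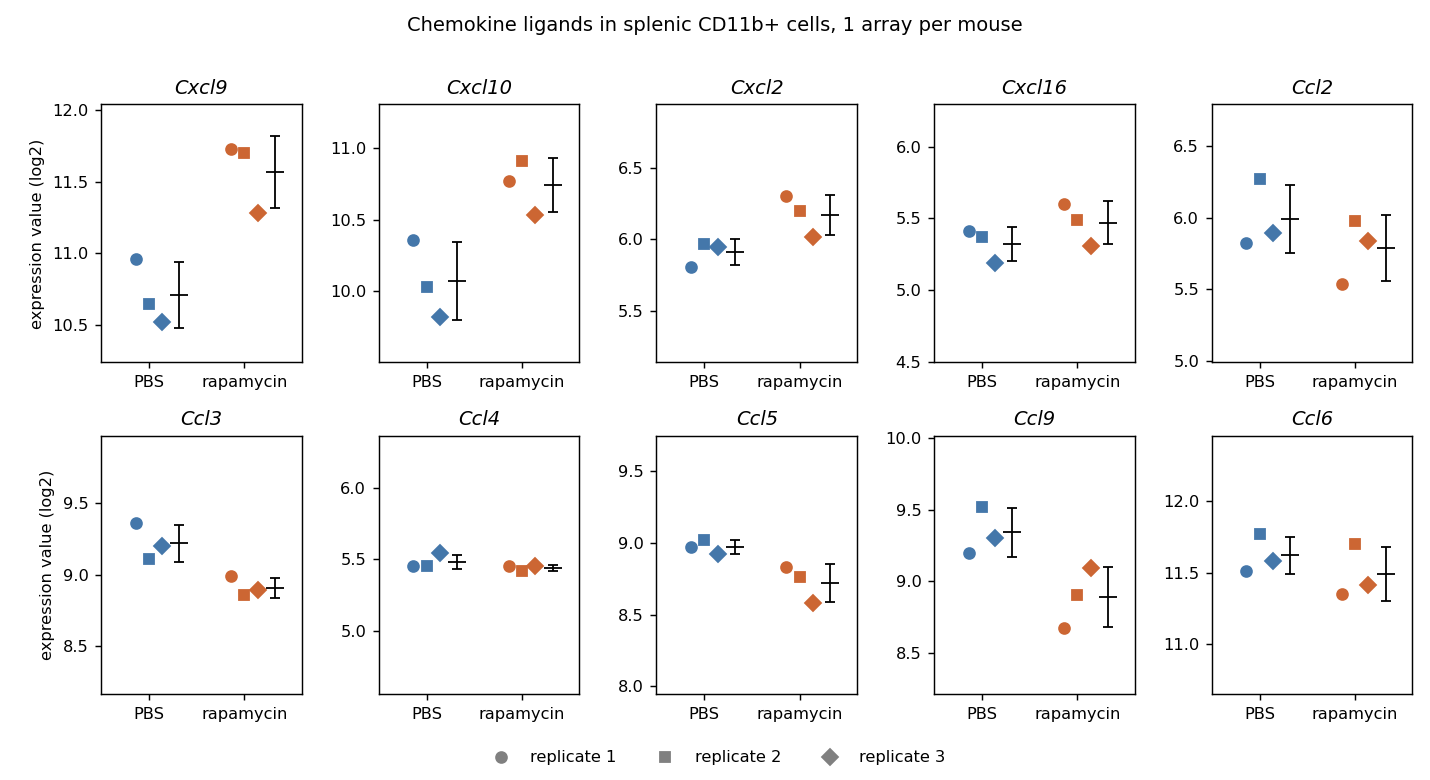
Expression value (log2) of each of the 10 ligands in each mouse, PBS in blue and rapamycin in orange; the marker shape gives the replicate number, and the black bars show the group mean with SD (n = 3). Cxcl9, Cxcl10 and Cxcl2 have every rapamycin mouse above every PBS mouse, Ccl3, Ccl5 and Ccl9 have every rapamycin mouse below, and the groups of the other 4 overlap.

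Cxcl9, an interferon gamma-induced ligand of CXCR3 (probe set 10531407, chromosome 5), read 10.96, 10.65 and 10.52 in PBS mice 1, 2 and 3 and 11.73, 11.70 and 11.28 in rapamycin mice 1, 2 and 3 (log2). Every rapamycin value lay above every PBS value, and 0.32 separated the lowest rapamycin mouse from the highest PBS mouse. The means were 10.71 ± 0.23 and 11.57 ± 0.25 (SD, n = 3), so Cxcl9 rose by 0.86 ± 0.15 on the log2 scale (SE; 95% interval 0.51 to 1.21), or 1.81-fold, with limma's adjusted p of 0.0173. Ranked by p, it stood at place 504 of the 13965 genes, so the change was one of many of its strength. The within-group SD of Cxcl9, 0.239, was larger than that of 98.6% of genes tested, where the median was 0.0771.

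Each array was then left out in turn (6 leave-one-out fits, each also with fewer samples). The call for Cxcl9 held without PBS mouse 1 (adjusted p 0.0330, limma) and without rapamycin mouse 3 (0.0186). It was lost without PBS mouse 2 (adjusted p 0.0861, limma), PBS mouse 3 (0.0699), rapamycin mouse 1 (0.0826) or rapamycin mouse 2 (0.0595). The log2 change in these 6 fits reached from 0.76 to 1.0.

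Cxcl10, a further interferon-induced ligand of CXCR3 (probe set 10531415, chromosome 5), read 10.36, 10.03 and 9.82 in PBS mice 1, 2 and 3 and 10.77, 10.91 and 10.53 in rapamycin mice 1, 2 and 3 (log2). The groups did not overlap, with a gap of 0.17. The means were 10.07 ± 0.27 and 10.74 ± 0.19 (SD, n = 3), a rise of 0.67 ± 0.15 on the log2 scale (SE; 95% interval 0.32 to 1.01), or 1.59-fold, at an adjusted p of 0.0334 with limma. Its within-group SD of 0.234 exceeded that of 98.4% of genes.

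Like Cxcl9, Cxcl10 stayed called without PBS mouse 1 (adjusted p 0.0346, limma) or rapamycin mouse 3 (0.0396). It was not called without PBS mouse 2 or rapamycin mouse 1 (adjusted p 0.126 in each fit, limma), PBS mouse 3 (0.0965) or rapamycin mouse 2 (0.0942). Among the PBS mice, mouse 1 was highest and mouse 3 lowest for both Cxcl9 and Cxcl10, and among the rapamycin mice, mouse 3 was lowest for both.

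**Figure D2:**
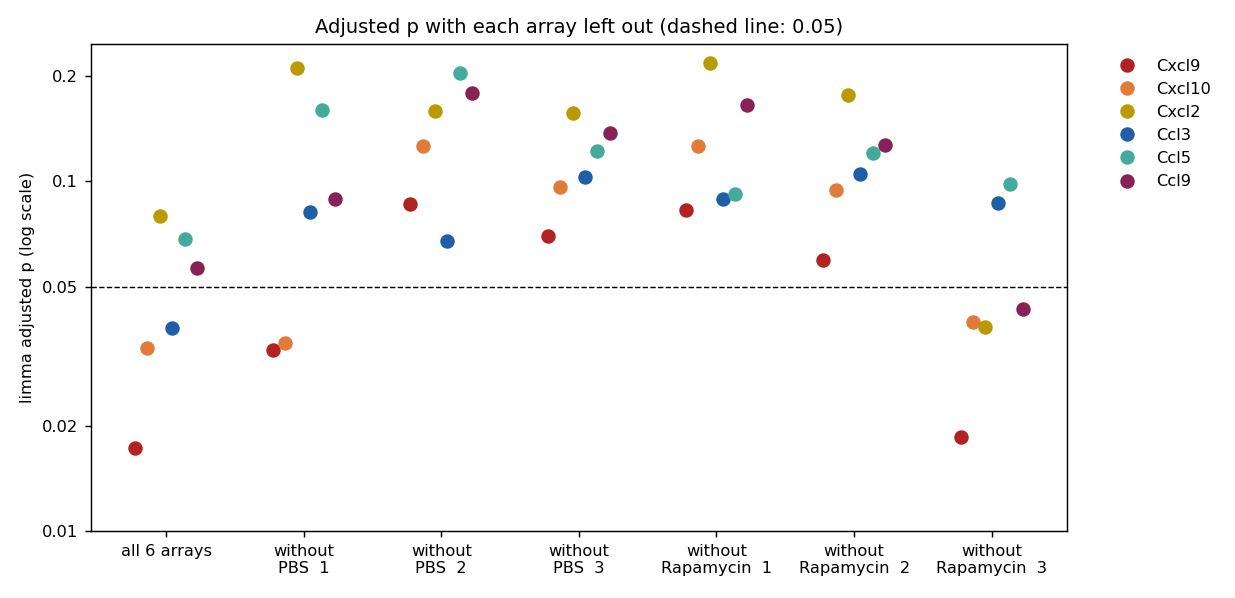
Adjusted p (limma, log scale) of the 6 ligands whose groups do not overlap, with all 6 arrays and with each array left out; the dashed line marks 0.05. With all arrays Cxcl9 (0.0173), Cxcl10 (0.0334) and Ccl3 (0.038) lie under the line, and none of the 6 does without PBS mouse 2, PBS mouse 3, rapamycin mouse 1 or rapamycin mouse 2.

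Cxcl11, the remaining ligand of CXCR3, is annotated by RefSeq as a transcribed pseudogene in the C57BL/6J reference. It read 5.37 ± 0.09 with PBS and 5.56 ± 0.09 with rapamycin (SD, n = 3), a log2 change of 0.19 ± 0.07 (SE) that did not pass the test (adjusted p 0.109, limma). The receptor gene Cxcr3 itself read 4.82 ± 0.02 with PBS and 4.84 ± 0.05 with rapamycin (SD, n = 3), close to the brightness filter of 4.72. It differed by 0.02 ± 0.05 (SE), with overlapping groups.

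Cxcl2, a neutrophil attractant that binds CXCR2 (probe set 10523156, chromosome 5), read 5.81, 5.97 and 5.95 in PBS mice and 6.30, 6.20 and 6.02 in rapamycin mice (log2). All 3 rapamycin values were above the PBS values, but by a gap of only 0.05. The log2 change of 0.27 ± 0.08 (SE; 95% interval 0.08 to 0.46) did not pass the test (adjusted p 0.0795, limma), and it did without rapamycin mouse 3 (0.0383). Cxcl1, a related CXCR2 ligand, is the next protein-coding gene to Cxcl2 in RefSeq's order. It differed by 0.08 ± 0.06 (SE), and the receptor gene Cxcr2 by 0.09 ± 0.07 (SE).

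Cxcl16, a membrane-bound ligand of CXCR6 that is shed by the protease ADAM10 (probe set 10387890, chromosome 11), read 5.41, 5.37 and 5.19 with PBS and 5.60, 5.49 and 5.31 with rapamycin (log2). The groups overlapped, and the log2 change of 0.14 ± 0.09 (SE; 95% interval -0.07 to 0.36) did not pass the test (adjusted p 0.341, limma). It was 0.08 without PBS mouse 3 or rapamycin mouse 1, and 0.22 without rapamycin mouse 3. The mean of the receptor gene Cxcr6 over the 6 arrays was under the brightness filter. In the fit without the filter, Cxcr6 was at -0.34 ± 0.08 (SE; adjusted p 0.0621, limma), with every rapamycin value below every PBS value. Adam10 differed by -0.10 ± 0.07 (SE).

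Ccl3, also known as MIP-1 alpha, which binds CCR1 (probe set 10389231, chromosome 11), read 9.36, 9.11 and 9.20 in PBS mice 1, 2 and 3 and 8.99, 8.86 and 8.89 in rapamycin mice 1, 2 and 3 (log2). Every rapamycin value was below every PBS value, with a gap of 0.12. The means were 9.22 ± 0.13 and 8.91 ± 0.07 (SD, n = 3), so Ccl3 fell by 0.31 ± 0.07 on the log2 scale (SE; 95% interval -0.48 to -0.14), a level 1.24-fold lower, with an adjusted p of 0.0380 (limma). This call was lost in each of 6 leave-one-out fits, where the adjusted p ran from 0.0674 (without PBS mouse 2) to 0.105 (without rapamycin mouse 2; limma) and the change from -0.37 to -0.24.

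Ccl4, or MIP-1 beta, an attractant of monocytes and T cells (probe set 10379721, chromosome 11), read 5.45, 5.45 and 5.54 with PBS and 5.45, 5.42 and 5.45 with rapamycin (log2). The values of the 6 mice lay close together, and the within-group SD of 0.039 was under that of most genes (percentile 12.7). The log2 change was -0.04 ± 0.05 (SE; 95% interval -0.14 to 0.07; adjusted p 0.646, limma), and -0.00635 without PBS mouse 3.

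Ccl5, or RANTES, a ligand of CCR1 that activated T cells and NK cells also make (probe set 10389207, chromosome 11), read 8.97, 9.02 and 8.92 with PBS and 8.83, 8.76 and 8.58 with rapamycin (log2). All 3 rapamycin values were below the PBS values, by a gap of 0.09. The log2 change of -0.25 ± 0.07 (SE; 95% interval -0.42 to -0.08) did not pass the test over all genes (adjusted p 0.0683, limma).

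Ccl9, a ligand of CCR1 that humans lack (probe set 10389214, chromosome 11), read 9.20, 9.52 and 9.30 with PBS and 8.67, 8.90 and 9.09 with rapamycin (log2). The groups did not overlap, with a gap of 0.10, yet the mice of a group differed more than for most genes (within-group SD 0.191, percentile 96.5). The log2 change of -0.45 ± 0.12 (SE; 95% interval -0.74 to -0.17) did not pass the test (adjusted p 0.0564, limma). Without rapamycin mouse 3 it did, at -0.56 (adjusted p 0.0432, limma).

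Ccl6, a relative of Ccl9 that also binds CCR1 (probe set 10389222, chromosome 11), read 11.51, 11.77 and 11.58 with PBS and 11.35, 11.70 and 11.41 with rapamycin (log2). The groups overlapped, and the log2 change was -0.13 ± 0.11 (SE; 95% interval -0.38 to 0.12; adjusted p 0.455, limma). It was -0.06 without PBS mouse 2, -0.07 without rapamycin mouse 1 and -0.24 without rapamycin mouse 2.

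Ccl2, or MCP-1, the monocyte attractant that binds CCR2 (probe set 10379511, chromosome 11), read 5.82, 6.27 and 5.89 with PBS and 5.54, 5.98 and 5.84 with rapamycin (log2). The groups overlapped, and the log2 change was -0.21 ± 0.15 (SE; 95% interval -0.55 to 0.14; adjusted p 0.396, limma). It was -0.07 without PBS mouse 2 and -0.08 without rapamycin mouse 1. PBS mouse 2 was the highest of its group for Ccl2, Ccl6 and Ccl9, and rapamycin mouse 1 the lowest of its group for the same 3 genes. The within-group SD of Ccl2, 0.232, lay at percentile 98.4 of all genes.

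**Figure D3:**
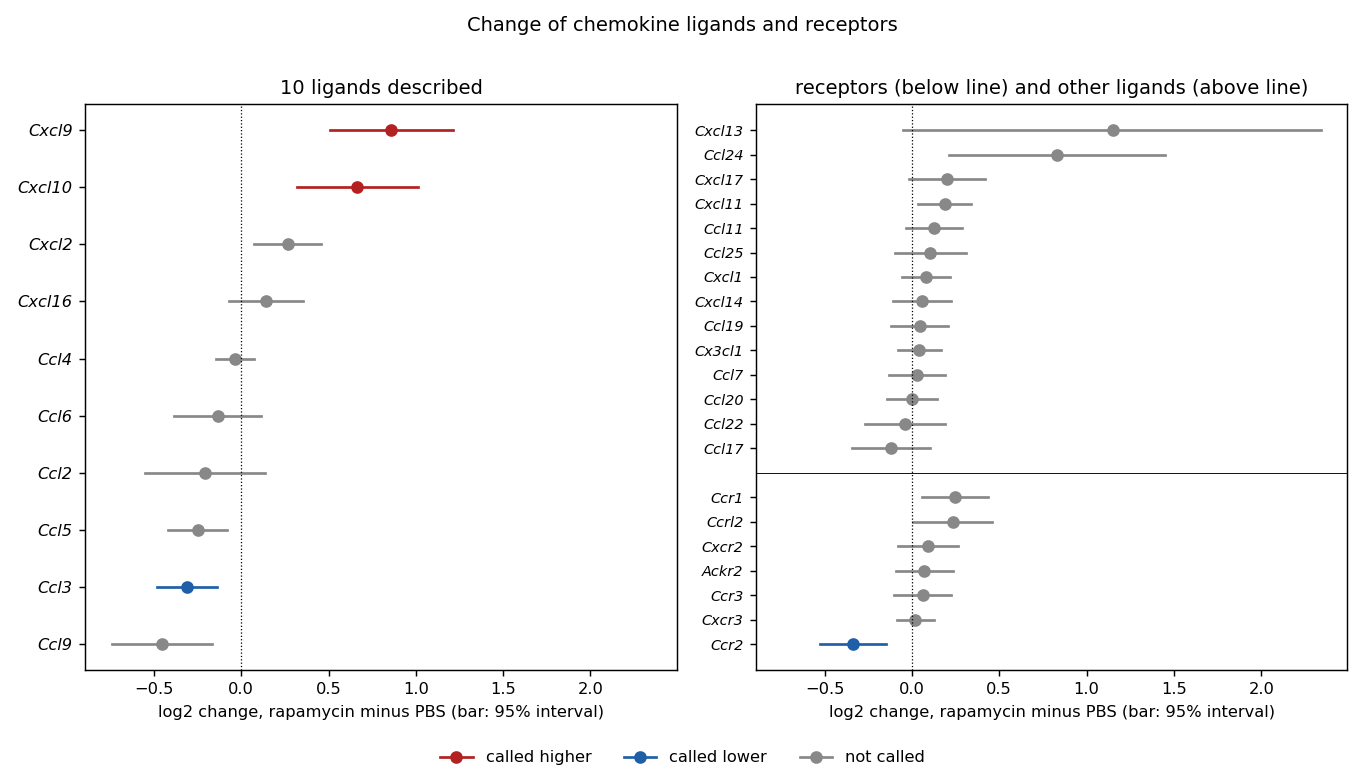
Log2 change (rapamycin minus PBS) with its 95% interval from limma for the 10 ligands (left), for 14 other chemokine ligands tested (right, above the line) and for 7 receptors (right, below the line); red was called higher, blue lower and grey not called. The intervals of Cxcl9 (0.51 to 1.21) and Cxcl10 (0.32 to 1.01) lie above 0, and the called receptor is Ccr2 at -0.34.

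The ligands lie in gene clusters, and neighbours within a cluster were set side by side in RefSeq's order of protein-coding genes. Genes of other kinds, such as pseudogenes, were left out of that order. On chromosome 11, Ccl5, Ccl9, Ccl6, Ccl3 and Ccl4 follow one another, and all 5 had negative log2 changes, from -0.45 (Ccl9) to -0.04 (Ccl4), of which that of Ccl3 was called. The next gene, Wfdc17, which encodes a secreted protein with a WAP domain, changed in the other direction: it rose by 1.04 ± 0.10 (SE; adjusted p 0.00513, limma) and was called in all 6 leave-one-out fits. On chromosome 5, Cxcl9 and Cxcl10 flank Art3, which was under the brightness filter and differed by 0.04 ± 0.04 (SE).

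Around that pair on chromosome 5, Naaa, a lysosomal amidase, rose by 0.36 ± 0.09 (SE; adjusted p 0.0428, limma; called in 1 of 6 leave-one-out fits). Sdad1, between Naaa and Cxcl9, differed by 0.25 ± 0.09 (SE; adjusted p 0.121, limma), and Nup54, on the other side of Cxcl10, by -0.05 ± 0.06 (SE). Scarb2, a lysosomal membrane protein beyond Nup54, rose by 0.31 ± 0.06 (SE; adjusted p 0.0222, limma; called in 2 of the 6). These neighbours are named for their position. Whether probes of the closely related Ccl3 and Ccl4, or of Ccl6 and Ccl9, pick up each other's RNA was not tested.

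**Figure D4:**
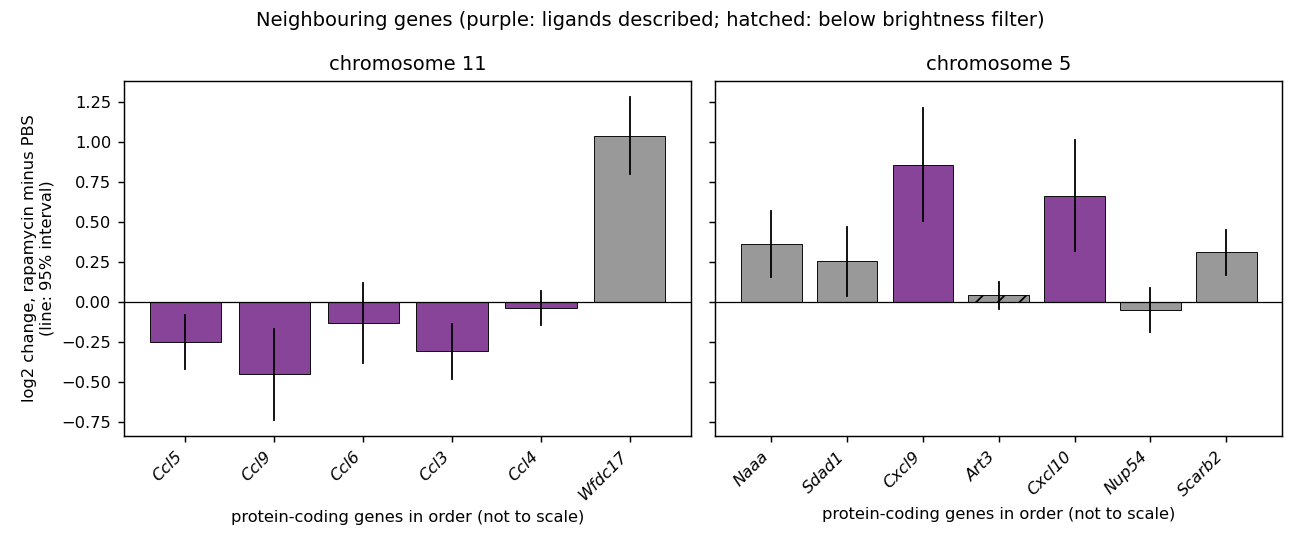
Log2 change (rapamycin minus PBS) of neighbouring protein-coding genes in RefSeq order, not to scale, with 95% intervals as lines; ligands described are purple, other genes grey, and Art3, under the brightness filter, is hatched. The 5 Ccl genes of chromosome 11 lie below 0 with Wfdc17 at 1.04, and Cxcl9 and Cxcl10 of chromosome 5 lie above 0 with Art3 between them at 0.04.

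Of 28 other chemokine ligands listed, 26 had a probe set of their own, 12 of these were under the brightness filter (among them Ccl1, Ccl8, Cxcl5, Cxcl12, Pf4 and Xcl1) and 14 were tested. With limma 0 of the 14 were called, and 2 (Ccl24 and Cxcl11) had an unadjusted p under 0.05, with a median log2 change of 0.0695; without PBS mouse 1, Ccl24 was. Ccl24, an eosinophil attractant that binds CCR3, read 7.58, 6.61 and 6.61 with PBS and 8.04, 7.68 and 7.59 with rapamycin (log2). PBS mouse 1 lay close to the rapamycin mice, and the change was 0.83 ± 0.26 (SE; adjusted p 0.0873, limma).

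Of the receptors listed, 7 were tested. Ccr2, the receptor of Ccl2 that marks inflammatory monocytes, read 10.11, 10.08 and 10.01 with PBS and 9.83, 9.55 and 9.81 with rapamycin (log2). It fell by 0.34 ± 0.08 on the log2 scale (SE; adjusted p 0.0409, limma), and was called in none of 6 leave-one-out fits (adjusted p 0.0557 to 0.14). Ccr1, a receptor of Ccl3, Ccl5, Ccl6 and Ccl9, differed by 0.25 ± 0.08 (SE; adjusted p 0.0931, limma), and the atypical receptor Ccrl2 by 0.23 ± 0.10 (SE; 0.163). Neither passed the test with all arrays, and both did without rapamycin mouse 3. Of 7 genes whose products cut or regulate chemokines or their mRNAs, limma called 0, and 0 had an unadjusted p under 0.05, Dpp4, a protease that trims Cxcl9 and Cxcl10, being at 0.32 ± 0.18 (SE). Their median was 0.0516, and -0.00512 after quantile normalization again.

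Cxcl9 and Cxcl10 belong to a wider set of genes that interferon gamma induces, and 23 others of that set were listed. Of these, 18 were tested: 7 rose, against 4.42% of all genes, and the other 11 were not called, with a median log2 change of 0.278. The mean level of the 18 ran from 10.09 to 10.21 over the PBS mice and from 10.33 to 10.56 over the rapamycin mice, where mouse 3 was lowest, as it was for Cxcl9 and Cxcl10. The count of 7 was 3 without PBS mouse 1, 2 without PBS mouse 2, PBS mouse 3 or rapamycin mouse 1, 4 without rapamycin mouse 2 and 9 without rapamycin mouse 3.

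Among the 7, Gbp5, a guanylate-binding protein of host defence, rose by 0.80 ± 0.08 (SE), and Iigp1, an immunity-related GTPase, by 0.62 ± 0.07. Both were called in all 6 leave-one-out fits. Nos2, which makes nitric oxide, rose by 0.59 ± 0.12, the MHC class II chain H2-Eb1 by 0.54 ± 0.11, the signalling inhibitor Socs1 by 0.49 ± 0.12 and Cd274, which encodes PD-L1, by 0.37 ± 0.08. These 4 were called in 1 or 2 of the 6 fits. The transcription factor Irf1 has 2 probe sets: it rose by 0.35 ± 0.08 on the brighter, and their mean gave -0.08 (adjusted p 0.501, limma). Earlier results of these data had shown several of these genes higher, so the list is not independent evidence.

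The transcript of interferon gamma itself, Ifng, read 5.14 ± 0.10 with PBS and 5.07 ± 0.06 with rapamycin (SD, n = 3), with overlapping groups (adjusted p 0.524, limma). Both means lay under the lowest array median of 5.42. Of 16 genes tested that type I interferon induces, 2 rose and 0 fell, against 4.42% and 6.92% of all genes. The median of the 16 was -0.0235, and 0.00814 with the array medians aligned over the genes tested. The 2 that rose were Oas2, a sensor of double-stranded RNA (0.42 ± 0.08, SE), called in 2 of 6 leave-one-out fits, and the deconjugating protease Usp18 (0.46 ± 0.12), called in 1. Rapamycin values lay wholly above the PBS values for 4 of the 16, against 12.6% of all genes. They lay wholly below for 1, against 19.4%: Rsad2, at -0.35 ± 0.12 (SE; adjusted p 0.1, limma). Of 14 genes tested that NF-kB induces, Cd83, a surface protein of activated antigen-presenting cells, rose by 0.21 ± 0.05 (SE), and Nfkbia, the inhibitor of NF-kB, fell by 0.33 ± 0.06. Each count, 1 of 14, stands beside the same 4.42% and 6.92%. Cd83 was called in none of those 6 fits and Nfkbia in 2, and the median of the 14 was 0.183.

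A bead sort can carry over lymphocytes, and some of their markers fell with rapamycin. Over all genes tested, 6.92% were called lower. Of 8 T cell markers tested, 0 rose and 3 fell: Ubash3a by 0.51 ± 0.10 (SE), Cd3g by 0.39 ± 0.09 and Cd8a by 0.27 ± 0.06. All 8 changes were negative. Cd8b1, not called, was at -0.48 ± 0.12 (SE; adjusted p 0.0511, limma), with every rapamycin value below every PBS value. The mean level of the 8 ran from 5.65 to 5.76 over the PBS mice and from 5.36 to 5.48 over the rapamycin mice. Under the brightness filter were 3 more, read from the fit without the filter. Cd3d was at -0.425 ± 0.086 (SE; adjusted p 0.0396, limma), Themis at -0.14 ± 0.041 (0.0992) and Cd28 at -0.054 ± 0.053 (0.586). For Cd3d and Themis every rapamycin value was below every PBS value, and for Cd28 the groups overlapped. Of 6 markers of NK and cytotoxic cells tested, the granzyme Gzmb fell by 0.76 ± 0.11 (SE) and Nkg7, a protein of cytotoxic granules, by 0.66 ± 0.12. The other 4 were not called. Among them Prf1 differed by -0.36 ± 0.14 (SE; adjusted p 0.144, limma), with every rapamycin value below every PBS value. Ifng was at -0.07 ± 0.06, Tbx21 at -0.00242 ± 0.04 and Eomes at 0.04 ± 0.05. The mean level of the 6 ran from 6.06 to 6.21 with PBS and from 5.81 to 5.91 with rapamycin. Ncr1, Klrb1c, Gzma and Klrd1 were under the filter.

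T cells and NK cells also make Ccl3, Ccl4 and Ccl5, and the part that these cells have in the values of Ccl3 and Ccl5 was not tested. The T cell count of 3 was 1 without PBS mouse 1, 2 without rapamycin mouse 3 and 0 without any of the other 4 mice. The count of 2 for NK and cytotoxic cells was 1 without PBS mouse 1, 0 without PBS mouse 2 or PBS mouse 3, and 2 without any 1 rapamycin mouse.

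Counts for markers of the sorted myeloid cells stand beside 4.42% of all genes called higher and 6.92% called lower. Rapamycin arrays lay wholly above the PBS arrays for 3 macrophage, 3 monocyte and 2 dendritic cell markers, against 12.6% of all genes. They lay wholly below for 0, 1 and 0 of these lists' markers, against 19.4%. Of 11 macrophage markers tested, 1 was called: the lysosomal protein Cd68 rose by 0.83 ± 0.09 (SE), and its call was lost without PBS mouse 2 (adjusted p 0.0504, limma). The mean level of the 11 ran from 8.10 to 8.57 with PBS and from 8.51 to 8.61 with rapamycin. Of 6 dendritic cell markers tested, the integrin Itgax rose by 0.82 ± 0.18 (SE; called in 2 of 6 leave-one-out fits), and 4 of the 6 had negative changes, with a median of -0.0372. Clec9a, another of them, had a PBS mean of 4.53, under the brightness filter, and was at 0.54 ± 0.15 (adjusted p 0.0631, limma). The mean level of the 6 ran from 5.85 to 5.97 with PBS and from 5.99 to 6.15 with rapamycin. Of 7 monocyte markers, Ms4a6c rose by 0.38 ± 0.08 (called in 1 of the 6 fits). F13a1, a coagulation factor subunit made by monocytes, differed by -0.50 ± 0.14, with all rapamycin values below the PBS values (adjusted p 0.0638, limma), and was called lower without rapamycin mouse 3. The mean level of the 7 ran from 9.74 to 9.85 with PBS and from 9.78 to 9.96 with rapamycin.

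Of 12 neutrophil markers limma called 0, and 1 (Mpo) had an unadjusted p under 0.05. Their mean level ran from 12.38 to 12.42 with PBS and from 12.29 to 12.36 with rapamycin. Of 2 B cell markers tested, Cd79b, a chain of the B cell receptor, fell by 0.32 ± 0.06 (SE), Blk was at 0.14 ± 0.07 (not called), and Cd79a, Ms4a1 and Pax5 were under the filter. Of 4 platelet markers, whose median was -0.0169, the integrin Itgb3 fell by 0.46 ± 0.10 (SE). The 1 eosinophil marker tested was not called. Cd79b was called in 2 and Itgb3 in 1 of 6 leave-one-out fits. The part of all these cells in the values of the chemokine ligands was not tested.

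**Figure D5:**
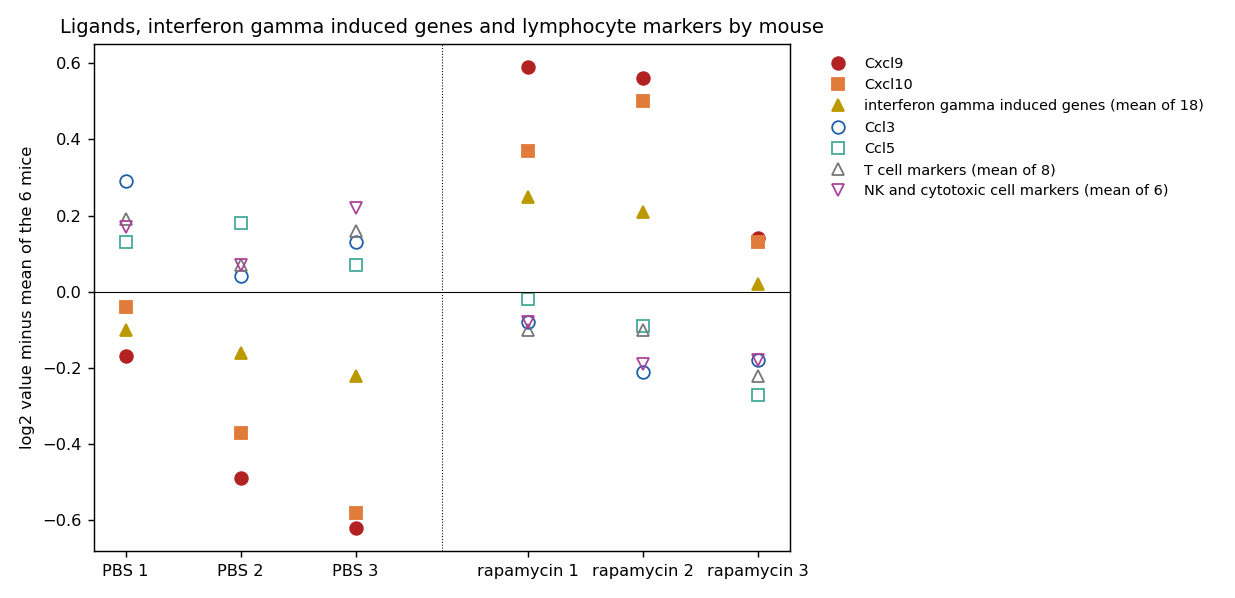
Log2 value minus the mean of the 6 mice, per mouse, for Cxcl9, Cxcl10, Ccl3 and Ccl5 and for the mean of 18 interferon gamma-induced genes, 8 T cell markers and 6 markers of NK and cytotoxic cells. Of the rapamycin mice, mouse 3 lies closest to 0 for Cxcl9 (0.14), Cxcl10 (0.13) and the interferon gamma-induced genes (0.02), while Ccl3, Ccl5 and the lymphocyte markers lie below 0 in all 3 rapamycin mice.

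Genes whose values followed Cxcl9 most closely over the 6 arrays were ranked by Pearson's r, as a description, since the arrays share the treatment groups. The highest were Tspan14, a tetraspanin (r = 0.9982), Plac8 (0.9966), Peli1, a ubiquitin ligase (0.9961), Htr7, a serotonin receptor (0.9955), and Naa25, a subunit of an acetyltransferase (0.9951). Cxcl10 came at place 27 with r = 0.9824. In all, 227 genes had an r above 0.95, so that likeness to Cxcl9 over these 6 arrays was common.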

How the data were processed

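Total RNA of sorted spleen cells of each mouse was hybridised to an array of its own after whole-transcript sense labelling (per the labels' protocols). The values the authors deposited are log2 expression per probe set, made with RMA in Affymetrix Expression Console per the submitters' processing notes. RMA equalises the arrays' distributions, which would hide a change shared by most genes. Versions, scan dates and the build of the array design were not given in the sources used here. Array batches were therefore not tested.

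Of 35556 probe sets, 21789 had 1 symbol in the platform table, and 21698 of these matched a RefSeq gene of GRCm38.p6 by Entrez ID. No further normalization was applied. Rapamycin and PBS arrays were fitted in limma 3.58.1 under R 4.3.3 (lmFit and eBayes, 2-sided, Benjamini-Hochberg over all 13965 genes tested), without covariates. With 3 arrays per group, an exact permutation test cannot go below p = 0.1, and the number of arrays limits the precision. No 2 arrays had more than 6.99% of probe set values equal, counted as exactly equal as deposited. Before use, the script was tested on simulated data of known changes. Plots were made by matplotlib 3.10.9 under Python 3.11.15.

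The members and gene lists were chosen with earlier results of these data known. The text names all members, every called gene of a list and otherwise up to 2 with the largest statistic, the 5 genes most like Cxcl9 and chromosomal neighbours. Other list genes were named after their values were seen. Alternatives were other brightness filters, renormalization, other probe set rules, variance models, array weights, each array left out and a block on the replicate number.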

Additional observations from a re-analysis of the deposited data

How the results depend on the processing

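All 10 ligands kept the sign of their log2 change in every alternative run. Of 158 ligand and setting pairs, 131 gave the same call as reported, 16 lost a call and 11 gained one. Cxcl9 kept its call in 10 of 10 settings other than leaving out an array (limma adjusted p 0.00368 to 0.0284), and Cxcl10 and Ccl3 in 9 of 10, each being lost without the brightness filter (0.0512 and 0.0531). The ligands called higher numbered 1 without that filter, and 0 to 3 with an array left out. Those called lower numbered 0 without the filter, 2 with a filter at the 50th percentile, with a variance trend and robust estimation or with array weights, 3 after quantile normalization again or with the array medians aligned over all probe sets, and 0 to 1 with an array left out. Over all genes, 1584 were called, and 113 (without PBS mouse 2) to 1336 with an array left out, in fits that also had fewer samples.

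The share of lower genes among all calls was 61.0%, 71.0% with the medians aligned over all probe sets, and 44.7% with the medians aligned over the genes tested, an alternative chosen after seeing the data. No scaling moved the median of all genes by more than 0.03167. Deviations of same-numbered mice correlated at 0.263, 0.00995 and 0.0456, and those of differently numbered mice at -0.193 to 0.138. With 3 mice per group, these values cannot settle whether the numbers pair the mice. With the replicate block, 2 ligands were called higher and 3 lower (Ccl3, Ccl5 and Ccl9), and 1691 genes in all.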
